A study of Mus musculus with 3 samples.

Results

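Wnt7a, En1 and Lmx1b, the genes that set the dorsal and ventral sides of the limb, were examined for RNAP2 and Med12 in cells of the mouse distal forelimb, taken at E12.5 by the sample labels, while the text of the series gives E11.5. All 3 genes were found in the annotation, out of 22367 protein-coding genes on chromosomes where the peak lists have entries. Each was given a window that holds its whole span and 100 kb on each side of its annotated start, and every peak with at least 1 bp in a window was taken. The windows were each 200 kb long and held 17 of the 20479 RNAP2 peaks and 6 of the 10634 Med12 peaks. RNAP2 is RNA polymerase II, and Med12 is a subunit of Mediator, the complex that links factors bound at enhancers to the polymerase. The labels call the RNAP2 antibody PolII and do not say which forms of the polymerase it binds. A stretch without an RNAP2 peak is therefore not shown to be free of polymerase. Chromatin came from dissected distal forelimbs of embryos for which the labels give no mutation or treatment, and the mouse strain and sex are not given in the sources used here. There was 1 library for an antibody against PolII, 1 for an antibody against Med12 and 1 input library without antibody, which has no peak list here. None of the values below therefore has a replicate error, and no test was run between genes or libraries.

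The dissected tissue was dissociated into a suspension without sorting by cell type in the methods, so that ectoderm, mesenchyme and the other cells were measured together. Ectoderm is a thin sheet around a mesenchymal core. In such a bulk sample, fewer cells of a type and less RNAP2 per cell cannot be told apart. Peaks are given with a score, the p-value of the peak on a negative log10 scale multiplied by 10. A deeper library or a wider peak gives a higher score, and scores were therefore used to rank peaks within a list only. The lowest score of either list was 40, or a p-value of 0.0001, and weaker binding would not be listed. The cutoff named in the methods, 1e-05, is a score of 50, and 2897 RNAP2 and 3816 Med12 peaks of the lists lie under it, among them 2 RNAP2 peaks and 1 Med12 peak of the Lmx1b window and none at Wnt7a or En1. The median RNAP2 peak was 1328 bp wide with a score of 123, and the median Med12 peak 972.5 bp wide with a score of 56.8. The lists give no read counts, so the depth at a peak is unknown.

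Dorsoventral patterning of the limb runs through a short chain of genes. Dorsal ectoderm secretes Wnt7a, a Wnt ligand, which induces the LIM homeodomain factor Lmx1b in the mesenchyme below, and Lmx1b gives that mesenchyme its dorsal identity. In ventral ectoderm, BMP signalling through Bmpr1a induces En1, a homeodomain repressor that keeps Wnt7a out of the ventral side. Loss of Wnt7a or Lmx1b turns the dorsal side of the paw ventral, and loss of En1 does the reverse. LMX1B mutations cause nail-patella syndrome in humans.

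At the start of Wnt7a neither list had a peak, whereas RNAP2 covered the start of En1 and RNAP2 and Med12 both lay at the start of Lmx1b. An RNAP2 peak within 1 kb of the start was found at 40.0% of all protein-coding genes, and a Med12 peak at 8.20%. Peaks of both lists were found at 7.58%, RNAP2 without Med12 at 32.4% and neither at 59.4%. Each member thus fell into a different one of these classes, but for Lmx1b this rests on a Med12 peak with a score of 64.3. A score of at least 100 was reached by 1966 of the 10634 Med12 peaks, against 11621 of the 20479 RNAP2 peaks. At that minimum, Lmx1b was in the class of En1, RNAP2 without Med12, with 32.0% of protein-coding genes. The share with both was then 1.92%. The windows held 2 RNAP2 peaks at Wnt7a, 1 at En1 and 14 at Lmx1b, and 1, 0 and 5 Med12 peaks in the same order. The windows are of equal length, so that these numbers can be set side by side without a correction for length.

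**Figure D1:**
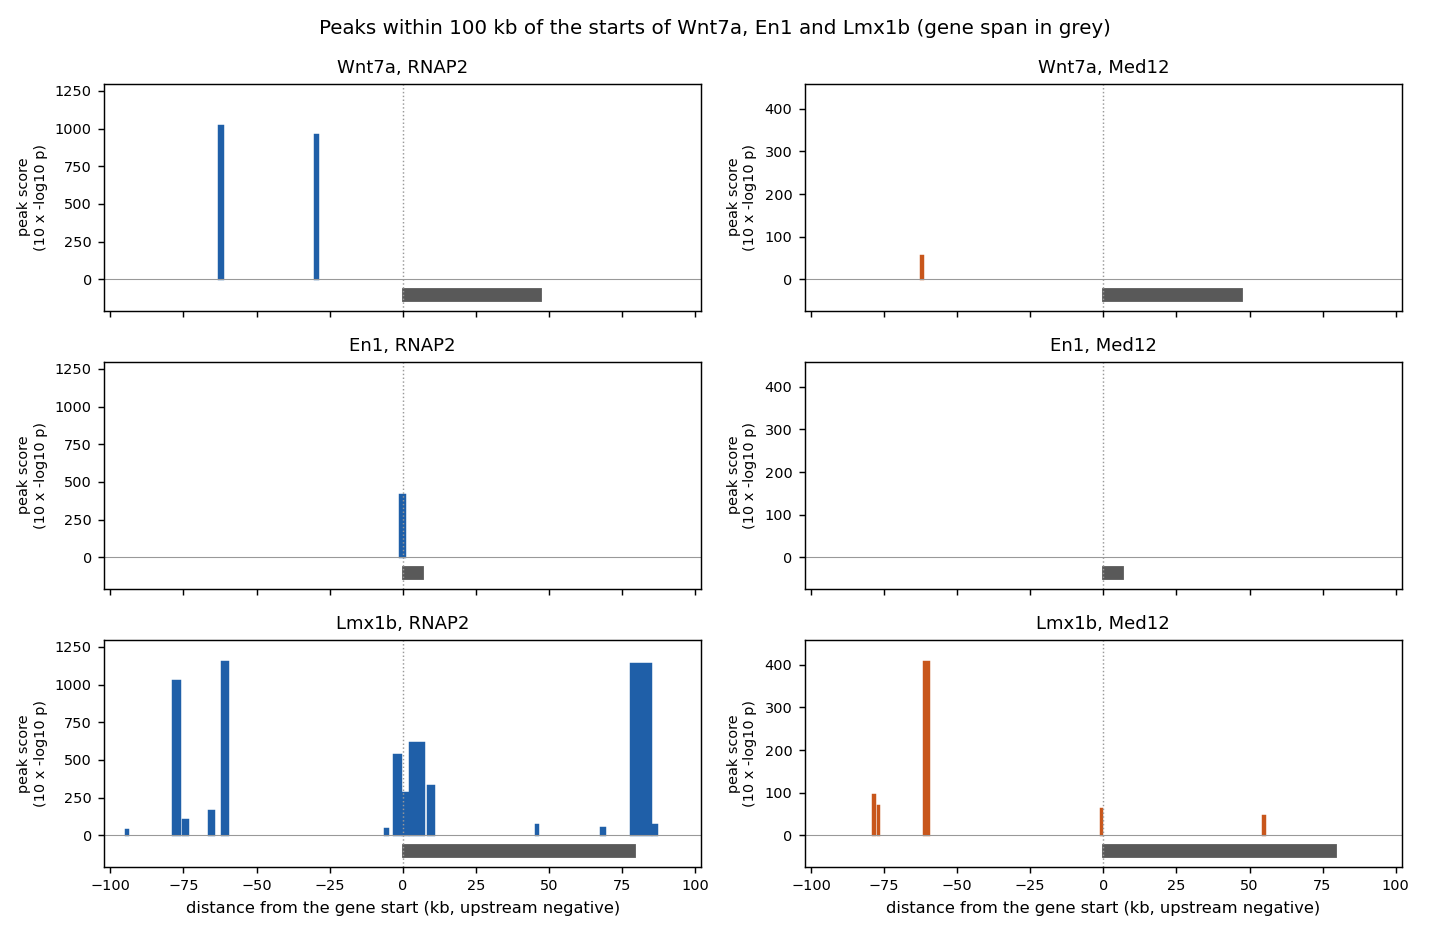
Peaks of the RNAP2 list (left) and the Med12 list (right) in the windows of Wnt7a, En1 and Lmx1b, with distance from the gene start in kb on the x axis and the peak score on the y axis. Each bar is 1 peak, drawn at its true width, and the grey bar is the span of the gene. The 2 RNAP2 peaks at Wnt7a lie upstream of it, the only peak at En1 lies on its start, and the 14 RNAP2 peaks at Lmx1b lie at its start, at its end and 61.0 to 94.4 kb upstream, with weaker ones between.

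Wnt7a (ENSMUSG00000030093.6) lies on the minus strand of chromosome 6 in mm9, from 91313975 to 91361357. No peak of either list overlapped any of its 47383 bp. The nearest RNAP2 peak began 28.9 kb upstream of the start, and on the side of the gene's end the nearest RNAP2 peak was 211 kb away from the start, with a score of 44.5. An RNAP2 peak was absent from both the start and the span of 54.2% of protein-coding genes, so the empty gene is by itself an ordinary finding. The bases before its start are shown because they are rich in CpG, a property that goes with RNAP2 peaks elsewhere in the list (given further on), with each CpG in capitals.
Wnt7a, chr6:91361358-91361607, minus strand: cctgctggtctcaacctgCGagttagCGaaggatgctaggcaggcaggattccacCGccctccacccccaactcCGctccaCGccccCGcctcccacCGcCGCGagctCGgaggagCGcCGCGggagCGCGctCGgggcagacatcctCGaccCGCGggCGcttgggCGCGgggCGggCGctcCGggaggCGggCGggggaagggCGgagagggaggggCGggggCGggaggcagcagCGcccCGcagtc

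The RNAP2 peaks of the Wnt7a window lie at the starts of other genes. The nearer one, chr6:91390280-91391585, scored 962 over 1306 bp and lies on the start of 4930471M09Rik, a lincRNA on the same strand whose start at 91390848 lies 29.5 kb upstream of Wnt7a. No Med12 peak overlapped it. The farther one, chr6:91422768-91424583, is 1816 bp wide with a score of 1021, and covers the starts of Chchd4, a mitochondrial import factor, and Tmem43, a nuclear membrane protein, which are transcribed away from each other. The Med12 peak of the window, chr6:91423125-91424098, lies wholly inside it and has a score of 56.3, close to the median of its list. By score these RNAP2 peaks ranked 2134 and 1988 of 20479. The next peaks on that side lie just beyond the window, 105 kb upstream at the starts of Xpc and Lsm3, with scores of 566 for RNAP2 and 98.1 for Med12. Of all protein-coding genes, 61.6% had at least 2 RNAP2 peaks in their windows, 53.3% had no more than 2, 54.7% had at least 1 Med12 peak and 36.1% at least 1 site shared by the lists. Among the 3129 genes with as many coding starts around them as Wnt7a, the shares with at least as many were 57.8%, 51.6% and 30.4%. Wnt7a was therefore near the middle of the genes by peak number, with all its peaks at the starts of other genes.

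En1 (ENSMUSG00000058665.7) lies on the plus strand of chromosome 1, from 122498995 to 122505873. Its RNAP2 peak, chr1:122497581-122499786, is 2206 bp wide, and with a score of 423 it ranked 4584 of 20479. The peak runs over the start into the first exon, and its centre lies 0.312 kb upstream of the start. It covers 11.5% of the 6879 bp of the gene, and no RNAP2 peak lay within 1 kb of the gene's end. Of the 8953 protein-coding genes with an RNAP2 peak at the start, 47.4% had a score there at least as high, so the En1 peak was an average one for a promoter. The bases before the start are shown because they lie under this peak, again with CpG in capitals.
En1, chr1:122498745-122498994, plus strand: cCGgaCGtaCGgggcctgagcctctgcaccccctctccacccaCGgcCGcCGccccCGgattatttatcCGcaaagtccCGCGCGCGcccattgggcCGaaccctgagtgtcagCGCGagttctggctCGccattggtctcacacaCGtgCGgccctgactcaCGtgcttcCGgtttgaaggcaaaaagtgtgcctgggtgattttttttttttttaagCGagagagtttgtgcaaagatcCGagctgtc

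Apart from this peak, the window of En1 was empty. The only other protein-coding gene with a start in it is Marco, a macrophage scavenger receptor, 97.3 kb upstream, and neither list had a peak at its start. No Med12 peak lay within 100 kb. The nearest, chr1:122724580-122725577, was 226 kb downstream, intergenic, with a score of 62.1 and without an RNAP2 peak over it. Of all protein-coding genes, 77.2% had at least 1 RNAP2 peak in their windows and 38.4% had no more than 1, and among the 3059 genes with 2 coding starts in the window the share with at least 1 was 72.8%. A window without Med12 was found at 45.3% of all protein-coding genes, so its absence around En1 was common too. RNAP2 at En1 was thus found at the promoter alone.

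Lmx1b (ENSMUSG00000038765.5) lies on the minus strand of chromosome 2, from 33416485 to 33496031, and its window holds no other coding start. RNAP2 peaks covered 18.0% of the window, against 1.56% at Wnt7a and 1.10% at En1. Only 68 of the 22367 protein-coding genes, or 0.304%, had as much of their windows covered. At least 14 RNAP2 peaks were found at 1.26% of protein-coding genes, at least 5 Med12 peaks at 2.09%, and at least 3 sites where the lists overlap at 4.43%. Among the 2738 genes that, like Lmx1b, have no other coding start within 100 kb of their own, these shares were 2.30%, 5.19% and 4.53%. At a score of at least 100, Lmx1b had 9 RNAP2 peaks, 1 Med12 peak and 1 shared site, and 1.75%, 15.8% and 13.0% of protein-coding genes had at least as many. That limit keeps 11621 of the 20479 RNAP2 peaks but 1966 of the 10634 Med12 peaks, so it is far stricter for Med12. The high rank of the window held for RNAP2 at both score limits, and for Med12 only with the weaker peaks counted. Because the limit differs in strictness, it does not compare the 2 lists.

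**Figure D2:**
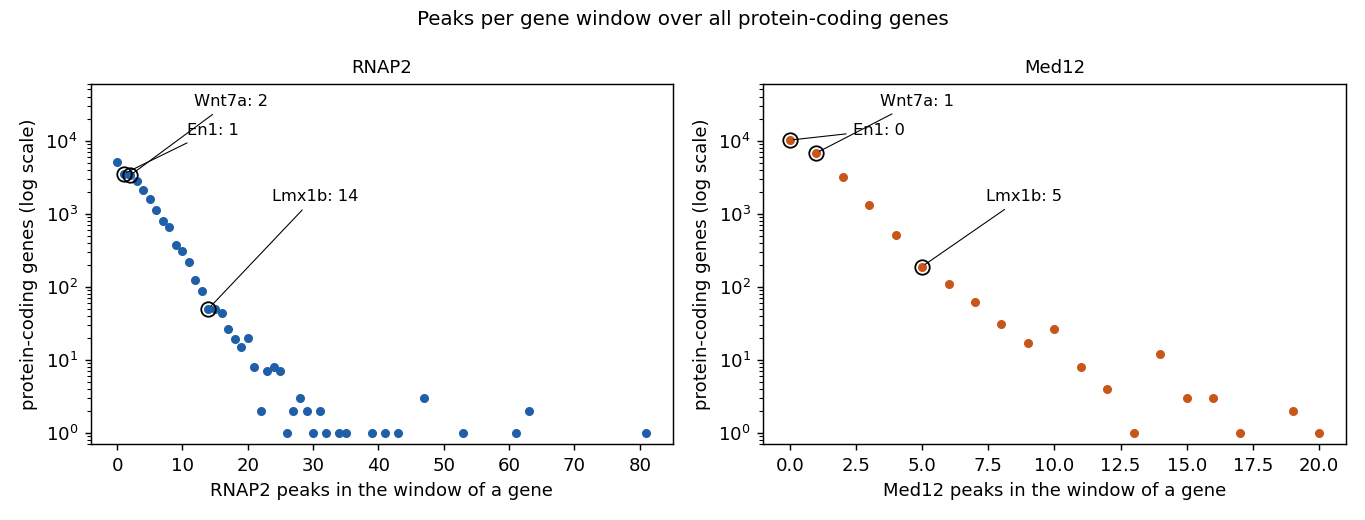
Number of protein-coding genes (y axis, log scale) by the number of RNAP2 peaks (left) or Med12 peaks (right) in the window of the gene (x axis). Each point is a number of peaks, and circles mark Wnt7a, En1 and Lmx1b. Wnt7a and En1 lie among the most common numbers, and Lmx1b, with 14 RNAP2 and 5 Med12 peaks, in the tail.

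At the start of Lmx1b, RNAP2 formed a nearly unbroken stretch. The annotated start at 33496031 lies under a peak of 2105 bp, chr2:33494151-33496255, with a score of 285. Downstream of it in the gene follow a peak of 5141 bp, chr2:33488761-33493901, with a score of 622, and a peak of 2309 bp, chr2:33485446-33487754, with a score of 338. The latter ends 33 bp from the start of the shorter transcript Lmx1b-002. On the other side, a peak of 2776 bp, chr2:33496466-33499241, scored 542 and lies over the start of C130021I20Rik, a lincRNA that is transcribed away from Lmx1b from a position 0.682 kb upstream of it. A weaker peak with a score of 48.3 lies at the far end of that lincRNA. The Med12 peak at the start, chr2:33496548-33497340, is 793 bp wide with a score of 64.3 and lies wholly within the RNAP2 peak over C130021I20Rik. Of the genes with RNAP2 at the start, 40.3% had a score at least as high as 542. Med12 was thus found between the divergent starts and on the lincRNA side of them, 517 bp from the annotated start of Lmx1b.

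The annotated transcript of Lmx1b may be incomplete at its start. The RefSeq promoter sequence of Lmx1b matched mm9 at 1 place and puts the start at 33496618, which is 587 bp farther upstream. This base lies under both the RNAP2 peak with a score of 542 and the Med12 peak. For Wnt7a and En1 the RefSeq starts were 10 and 69 bp from the annotated ones, and no call at their starts changed. The bases before the RefSeq start of Lmx1b are shown because they lie under both peaks, with CpG in capitals.
Lmx1b, chr2:33496619-33496868, minus strand: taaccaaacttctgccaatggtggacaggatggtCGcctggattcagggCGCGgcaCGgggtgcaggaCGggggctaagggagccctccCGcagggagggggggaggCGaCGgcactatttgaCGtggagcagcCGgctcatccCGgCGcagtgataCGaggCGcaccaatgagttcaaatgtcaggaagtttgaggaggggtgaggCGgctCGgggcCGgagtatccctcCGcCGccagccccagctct

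RNAP2 also lay at the end of Lmx1b. A peak of 7202 bp, chr2:33411017-33418218, holds the last 1734 bp of the gene and 5468 bp beyond it. It has a score of 1142, and by width it ranked 88 of 20479. No Med12 peak overlapped it. An RNAP2 peak within 1 kb of the end of the gene was found at 7.54% of protein-coding genes, and peaks at both start and end at 5.80%. Wnt7a and En1 had none at their ends. Of the 1687 genes with a peak at the end, 17.7% had one with a score at least as high. A small peak with a score of 75.95 follows it at 86.0 kb from the start. Between the start and the end, only 2 weak RNAP2 peaks lay in introns, with scores of 78.3 and 53.1. RNAP2 peaks covered 17.7% of the gene, and as much was covered in 2.83% of the 13506 protein-coding genes of 10 kb or more. An intron also held a Med12 peak without RNAP2, chr2:33440784-33441914, with a score of 48.8.

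Upstream of Lmx1b lay a second group of peaks with the highest scores of the window. The site 61.0 kb upstream, chr2:33555870-33558161, is intergenic, 2292 bp wide, and has the highest RNAP2 score near any of the 3 genes, 1159. A Med12 peak of 1753 bp, chr2:33555817-33557569, shares 1700 bp with it. Its score of 410 (409.86 in the list) ranked 130 of 10634, so that only 1.22% of Med12 peaks scored as high. The other Med12 peaks of the window scored 48.8 to 98.2. This site therefore stood apart from the rest of the window in the Med12 list, while in the RNAP2 list the peaks at the gene end and 77.5 kb upstream scored nearly as high.

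The next site, 65.6 kb upstream at chr2:33560551-33562620, had RNAP2 alone, with a score of 168. RNAP2 alone was also found 74.5 kb upstream, at chr2:33569513-33571574, with a score of 112. At 77.5 kb, a peak of 2999 bp, chr2:33572045-33575043, with a score of 1028, covers the noncoding transcript 9430024E24Rik. It held 2 Med12 peaks, chr2:33572595-33573513 and chr2:33573969-33575028, with scores of 71.0 (71.05 in the list) and 98.2. The last peak inside the window, 94.4 kb upstream in an intron of Fam125b, scored 44.55, and the first beyond it, at 106 kb in the same gene, scored 48.7 for RNAP2 and 56.4 for Med12. The limit of the window therefore fell among weak peaks.

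Of the 14 RNAP2 peaks of the Lmx1b window, 3 were overlapped by Med12 and 11 were not. In the whole list 21.7% of RNAP2 peaks were overlapped, so this share was near that of all peaks. In the other direction, 4 of the 5 Med12 peaks overlapped RNAP2, against 42.7% of the whole Med12 list. The RNAP2 peaks were broad, with 12 of 14 wider than the median of the list and a median of 2087.5 bp, while 8 of 14 scored above its median.

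Limb enhancers of Lmx1b that are bound by Lmx1b protein itself have been described upstream of the gene, but their coordinates are in none of the files used here, and whether these peaks are the same elements was not tested. The middle 300 bases are shown for the 3 distal overlaps of RNAP2 and Med12, of which 2 lie in the same RNAP2 peak, and for the RNAP2 site 65.6 kb upstream, which was added after its motifs were seen. Capitals mark TAATTA, a core bound by LIM homeodomain factors, and CTTTGA on either strand, a core bound by the TCF and LEF factors of Wnt signalling. The shared sites are centred on the bases under both peaks, and the site 65.6 kb upstream on its RNAP2 peak.
61 kb upstream, chr2:33556569-33556868, plus strand: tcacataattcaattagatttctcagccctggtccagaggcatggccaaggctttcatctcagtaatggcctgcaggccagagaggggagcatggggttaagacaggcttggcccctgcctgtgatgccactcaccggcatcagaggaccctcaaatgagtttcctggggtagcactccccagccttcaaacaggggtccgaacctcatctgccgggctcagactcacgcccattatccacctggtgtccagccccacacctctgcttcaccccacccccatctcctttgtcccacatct
65.6 kb upstream, chr2:33561435-33561734, plus strand: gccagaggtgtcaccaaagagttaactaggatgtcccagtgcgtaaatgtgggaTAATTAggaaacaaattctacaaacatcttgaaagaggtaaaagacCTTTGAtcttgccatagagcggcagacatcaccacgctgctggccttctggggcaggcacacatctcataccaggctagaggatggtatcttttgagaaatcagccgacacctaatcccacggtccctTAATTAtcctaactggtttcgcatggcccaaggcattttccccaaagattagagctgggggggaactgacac
77.0 kb upstream, chr2:33572904-33573203, plus strand: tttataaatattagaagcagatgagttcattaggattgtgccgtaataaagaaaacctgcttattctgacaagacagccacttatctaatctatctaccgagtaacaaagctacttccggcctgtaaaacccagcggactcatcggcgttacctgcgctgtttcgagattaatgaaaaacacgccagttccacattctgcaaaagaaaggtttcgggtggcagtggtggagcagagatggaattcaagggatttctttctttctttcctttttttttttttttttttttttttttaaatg
78.5 kb upstream, chr2:33574348-33574647, plus strand: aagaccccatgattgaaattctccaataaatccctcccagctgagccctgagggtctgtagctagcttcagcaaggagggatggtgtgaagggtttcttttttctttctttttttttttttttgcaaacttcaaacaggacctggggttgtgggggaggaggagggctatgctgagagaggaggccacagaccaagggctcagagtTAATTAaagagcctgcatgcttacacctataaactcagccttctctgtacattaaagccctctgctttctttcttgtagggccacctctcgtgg

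The site 61 kb upstream, which had the highest scores, and the site 77.0 kb upstream held neither motif in these bases. The site 65.6 kb upstream held 2 copies of TAATTA and 1 of CTTTGA, and the last site held 1 TAATTA. Over all RNAP2 peaks, 7.96% had a TAATTA in their central 300 bases, 0.840% had more than 1 copy, 15.8% had a CTTTGA and 1.68% had both motifs. Among the 14 RNAP2 peaks of the Lmx1b window, 2 had a TAATTA and 3 a CTTTGA, and among the 5 Med12 peaks 1 had a TAATTA and 0 a CTTTGA. In all Med12 peaks the shares were 11.9% and 20.8%. These numbers are small, and neither motif could be said to be more common at Lmx1b than in the lists. The motifs do not overlap each other, and a match is a string of letters and not a bound site.

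The other genes of the pathway were described from a list of 30 textbook genes that includes the 3 members. RNAP2 lay at the start of 21 of them, and Med12 at the start of 5, all of which also had RNAP2. The shares are 70.0% and 16.7%, beside 40.0% and 8.20% of all protein-coding genes. The list was not drawn at random, and it was chosen with earlier results of these data known. Of its genes, 4 also stand on the mesenchyme list and 1 on the ectoderm list below.

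Of the receptors, Fzd1, a Wnt receptor, had an RNAP2 score of 2492 and a Med12 score of 45.4 at its start. The related Fzd7 and Fzd10 had RNAP2 scores of 915 and 379, and the coreceptors Lrp6 and Lrp5 219.5 and 55.6, all without Med12. Bmpr1a, the BMP receptor upstream of En1, had an RNAP2 score of 2190.1, and the BMP ligands Bmp2 and Bmp7 444 and 365.5. The BMP ligand Bmp4 had no peak at its start. All the receptors and coreceptors named here had RNAP2 at their starts, as did 40.0% of all protein-coding genes.

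Of the nuclear factors, Lef1 and Tcf7l2, which carry the Wnt signal to DNA, had RNAP2 scores of 1099.7 and 310.4 at their starts. The Wnt effectors Tcf7 and Ctnnb1 had no peak there. Ldb1, the cofactor that LIM homeodomain proteins bind, had an RNAP2 score of 258. Lmo4, a LIM-only protein that also binds Ldb1, had 1981 for RNAP2 and 61.4 for Med12. Lhx9, a relative of Lmx1b in the distal mesenchyme, had 204. The Wnt target Axin2 had an RNAP2 score of 156 and the highest Med12 score of the list, 244. Gdf5, a joint gene, had 301 and 144. Besides Lmx1b, Med12 thus lay at the starts of Fzd1, Axin2, Lmo4 and Gdf5.

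No peak of either list lay at the annotated gene starts of 9 genes, which are Wnt7a, Rspo2, Ctnnb1, Tcf7, Bmp4, Lhx2, Shh, Fgf8 and Fgf4. Neither list had a peak at the start of 59.4% of all protein-coding genes. With the start of any coding transcript counted, RNAP2 lay at 23 genes of the list in place of 21. Within 5 kb of the annotated start it lay at 24, and at 43.3% of all protein-coding genes. RNAP2 peaks did cover 49.9% of the span of Ctnnb1, which encodes β-catenin, 51.4% of Bmp4, 25.3% of Lhx2 and 16.8% of Fgf8. For the other 5, which are Wnt7a, the Wnt potentiator Rspo2, the Wnt effector Tcf7, and the signals Shh and Fgf4, no RNAP2 peak lay at the start or over the gene. These are 16.7% of the list, against 54.2% of all protein-coding genes.

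Whether Wnt7a and En1 look like other ectodermal genes, and Lmx1b like other mesenchymal ones, was described with marker lists. Of 25 ectoderm markers, 24 were matched in the annotation, and 1 of them, Esrp1, had an RNAP2 peak at the start, with a score of 55.2. That is 4.17% of the list, beside 40.0% of all protein-coding genes. At the start, 0 had a Med12 peak, beside 8.20% of all protein-coding genes. Within 5 kb of the start, 5 had RNAP2 and 2 had Med12, where 43.3% and 10.9% of all protein-coding genes had them. The keratin genes Krt5, Krt14, Krt8 and Krt18, Trp63, the master factor of the epidermis, Cdh1 and Epcam of epithelial junctions, and the ectodermal ligands Wnt3, Wnt4, Wnt6, Wnt10a and Wnt10b had no peak at their starts. An RNAP2 peak was absent from start and span in 83.3% of the list, against 54.2% of all protein-coding genes. RNAP2 peaks did cover 28.9% of the span of Sp8, 16.8% of Fgf8 and 3.63% of Grhl3, without a peak at their starts. Wnt7a thus had what most ectoderm markers had, while En1, with a score of 423, lay above every gene of that list.

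Of the 25 mesenchyme markers, 20 had RNAP2 at the start (80.0%) and 8 had Med12 (32.0%), beside 40.0% and 8.20% of all protein-coding genes. The highest RNAP2 scores were 3100 at Msx1 and at Hand2, 2686 at Twist1 and 2637 at Gli3, all regulators of limb mesenchyme. No RNAP2 peak lay at the starts of Twist2, Lhx2, Grem1, Alx4 and Dcn. Twist2, Grem1 and Dcn had none over the gene either. Med12 lay at the starts of Hand2 (272), Prrx1 (220, 219.68 in the list), Pdgfra (138), Tbx3 (126), Twist1 (88.3), Hoxd11 (83.9), Sall1 (57.2) and Prrx2 (40.1). The median number of RNAP2 peaks per window was 6 over this list and 2 over the ectoderm list, as over all protein-coding genes. At least 14 RNAP2 peaks, as at Lmx1b, were found at 6 of the 25 genes, and at 1.26% of all protein-coding genes. Hoxd11, Hoxd12 and Hoxd13 are among these 6 and are neighbours, so their windows hold largely the same peaks. Of the 6, Prrx1 and Hoxd11 also had Med12 at the start. Lmx1b thus had the RNAP2 start peak of most of that list, and more RNAP2 peaks around it than most.

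**Figure D3:**
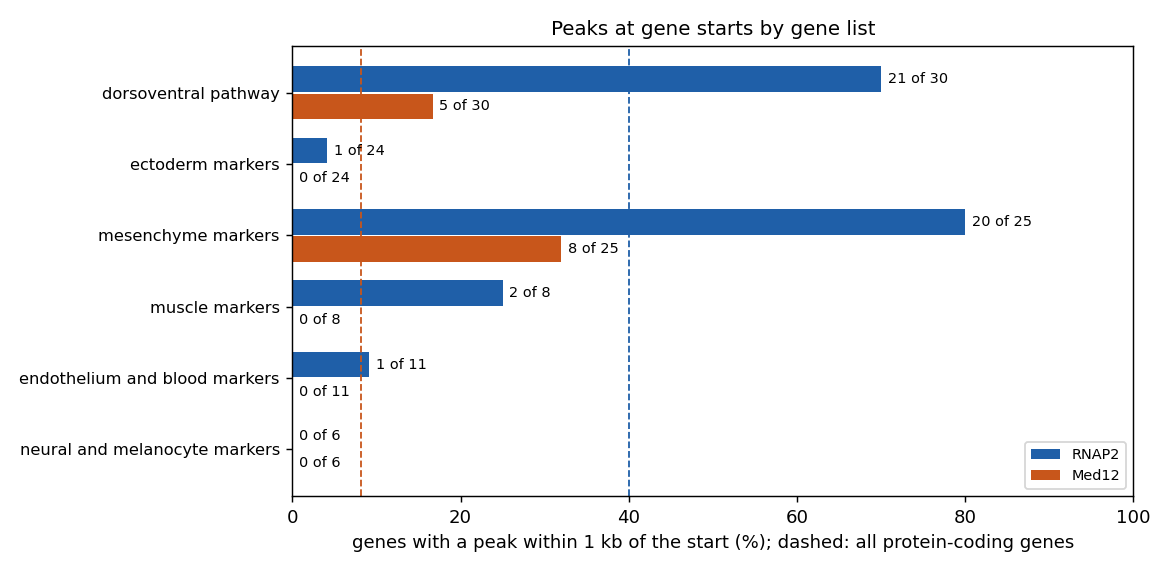
Share of genes with a peak within 1 kb of the start (x axis, %) for each gene list (y axis), with RNAP2 in blue and Med12 in orange and the number of genes beside each bar. Dashed lines mark the shares over all protein-coding genes, 40.0% for RNAP2 and 8.20% for Med12. The mesenchyme and pathway lists lie above both lines, and the lists of ectoderm and of the other cell types lie below them.

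The starts of genes of other cell types that the tissue could hold were mostly empty as well. RNAP2 lay at 2 of 8 muscle markers, Pax3 with a score of 283 and Lbx1 with 72.9, both known in migrating muscle precursors. It lay at 1 of 11 markers of endothelium and blood, Kdr with 148, and at 0 of 6 markers of neural cells and melanocytes. Med12 lay at none of these 25 genes. The shares over all protein-coding genes were 40.0% for RNAP2 and 8.20% for Med12. With so few genes, a Med12 count of 0 is near that share. RNAP2 thus lay at most starts of the mesenchyme list and at few starts of the lists of other cell types. The part that the number of ectodermal cells has in the empty start of Wnt7a was not tested.

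RNAP2 at a start goes with the CpG content of the promoter, so this was set beside the members. The ratio of observed to expected CpG in the 250 bases before the annotated start was 0.871 for Wnt7a, 1.01 for En1 and 1.01 for Lmx1b, or 0.738 before the RefSeq start of Lmx1b. The bases before the annotated start of Lmx1b lie downstream of its RefSeq start. The median over all protein-coding genes was 0.496. With a ratio from 0.5 to 0.75, where the RefSeq value of Lmx1b lies, 57.5% of starts had RNAP2. RNAP2 lay at 4.71% of starts with a ratio under 0.25, at 75.1% of the 4743 starts with a ratio from 0.75 to 1, where Wnt7a lies, and at 82.3% of those with a ratio of 1 or more. Of the starts without an RNAP2 peak, 5.51% had a ratio as high as that of Wnt7a. By its sequence, Wnt7a was therefore among promoters that mostly had RNAP2 in this tissue, and its start had none.

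**Figure D4:**
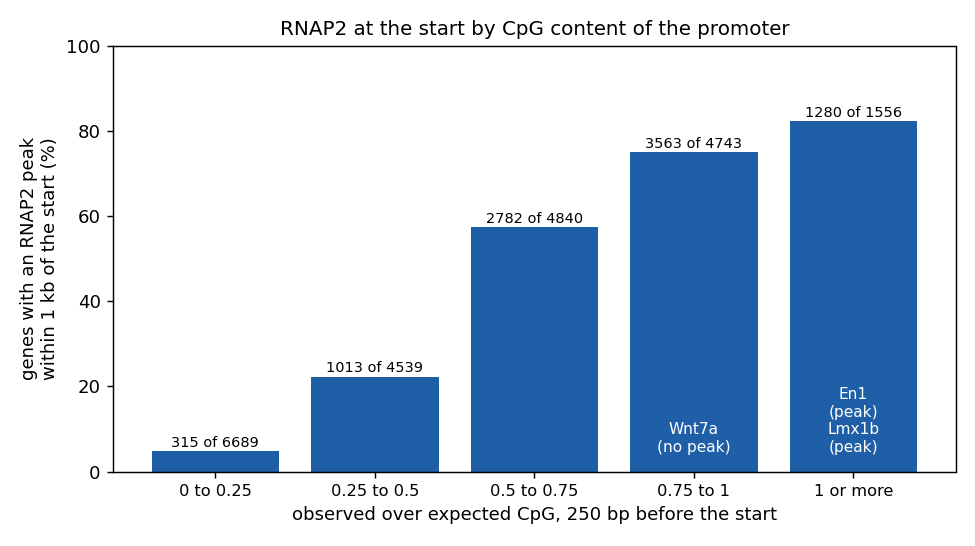
Share of protein-coding genes with an RNAP2 peak within 1 kb of the start (y axis, %) by the ratio of observed to expected CpG in the 250 bp before the annotated start (x axis), with the number of genes above each bar. White text shows the class of each member and whether RNAP2 lay at its start. Lmx1b is placed by its annotated start, and its RefSeq value of 0.738 lies in the class from 0.5 to 0.75. The share rises from 4.71% to 82.3% over the classes, and Wnt7a lies without a peak in a class where 75.1% have one.

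The same was seen over the ectoderm list. Of its 24 genes, 13 had a ratio of at least 0.5, and 0 of these had RNAP2 at the start, against 13 of 17 such genes of the mesenchyme list, 17 of 22 of the pathway list and 68.5% of all such genes. The median ratio was 0.512 over the ectoderm list and 0.631 over the mesenchyme list, and the part of CpG content in the difference between the lists was not tested.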

How the data were processed

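The deposited data were 2 peak lists, 1 for RNAP2 and 1 for Med12, each from 1 ChIP-seq library of mouse distal forelimbs. The input library has no list and was not analysed here. To make the lists, the authors cut 1 base from the start of the reads, aligned them to mm9 with Bowtie (version not given in the sources used here), discarded duplicate reads and ran MACS 1.4.1 as the peak caller. Whether the input served as its control is not given in the sources used here. The deposited score is the p-value of MACS on a negative log10 scale, multiplied by 10. Read depth is not held in the lists, so no interval could be set around a score. Because read pile-ups in ChIP carry no strand, divergent or overlapping transcripts under a peak cannot be told apart.

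Peak starts were converted to 1-based positions. Genes came from GENCODE vM1 on NCBIM37, the assembly also called mm9. A peak was counted with at least 1 bp in the window of a gene, or within 1 kb of its start, and sites were called shared where peaks of the lists overlapped by at least 1 bp. Overlaps were checked with bedtools 2.31.1, and the counting recovered 200 of 200 genes planted in simulated lists. Shares over all protein-coding genes stand in place of a test. Python 3.11.15 and matplotlib 3.10.9 were used. CpG ratios are the number of CpG times the length over the product of C and G counts. Promoter sequences of RefSeq were placed in mm9 by exact match. Printed sequences are from mm9.

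The members and lists were chosen with earlier results of these data known, and the lists are not independent evidence. The genes and peaks named by rule were the members with all their peaks, genes with starts or spans under those peaks, pathway genes with both proteins or with neither at the start, and, of the ectoderm and mesenchyme lists, the 4 highest RNAP2 scores and every gene with Med12. Other list genes were named after their values were seen, to show the roles in the pathway. The ectoderm marker Tfap2c was not matched. The alternatives were other windows, promoter distances, score minimums, starts and overlaps.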

Additional observations from a re-analysis of the deposited data

How the results depend on the processing

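Of 111 alternative values of 21 results, 76 stayed within 1.5 times the reported value and 35 moved further. Wider windows add peaks and score minimums remove them by construction. With 50 kb on each side, Wnt7a had 1 RNAP2 peak, 0 Med12 peaks and 0 shared sites, and Lmx1b had 8, 2 and 1. With 200 kb, Wnt7a had 4, 3 and 3, and Lmx1b had 9 Med12 peaks and 5 shared sites. With 500 kb, a window chosen after seeing the data, Wnt7a had 10 RNAP2 peaks, 5 Med12 peaks and 4 shared sites, En1 had 3 RNAP2 peaks and 1 Med12 peak, and Lmx1b had 26, 14 and 9. At a score of at least 100, Wnt7a had 0 Med12 peaks and 0 shared sites, and Lmx1b had 9 RNAP2 peaks, 1 Med12 peak and 1 shared site. The Med12 peaks of Lmx1b other than the one 60.7 kb upstream thus lay under that minimum. Under each of these windows and minimums Lmx1b had more RNAP2 peaks than Wnt7a, and Wnt7a at least as many as En1.

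With 5 kb in place of 1 kb around the start, 5 ectoderm markers had RNAP2 and 2 had Med12, and Med12 lay at 13 mesenchyme markers and 9 pathway genes. RNAP2 then lay at 43.3% and Med12 at 10.9% of all protein-coding genes. At a score of at least 100, 0 ectoderm markers had RNAP2, and Med12 lay at 4 mesenchyme markers and 2 pathway genes. The shares over all protein-coding genes were then 33.9% for RNAP2 and 2.03% for Med12. The RefSeq start and the score minimums for distances were also chosen after seeing the data. No paired analysis was possible because the results come from no test and there are no replicates, and none could be left out. Peaks below a score of 40 are not listed, and the absence of a peak at Wnt7a is a statement about that threshold only.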

Other observations

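Beyond the window, the sites where RNAP2 and Med12 overlapped continued upstream of Lmx1b. An intron of Fam125b, 173 kb upstream at the noncoding RNA NRON, held an RNAP2 peak with a score of 650 (650.05 in the list) and 2 Med12 peaks with scores of 134 and 65.2. An intergenic site 280 kb upstream had an RNAP2 score of 98.7 and a Med12 score of 127, and a site 414 kb upstream, in an intron of C230014O12Rik, had 69.3 and 173. At these last sites the Med12 peaks scored above the median of their list and the RNAP2 peaks below that of theirs. Around En1, by contrast, the next RNAP2 peaks were 481 kb upstream, at the start of Dbi, with a score of 781, and 419 kb downstream, intergenic, with a score of 72.9. These sites were chosen after their values were seen, and which genes they act on was not measured.

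The closest relatives of the members were also chosen after their values were seen. Wnt7b and Lmx1a had no RNAP2 peak at the start, with 3 and 2 RNAP2 peaks in their windows, and 46.7% and 61.6% of protein-coding genes had at least as many. En2 had an RNAP2 peak with a score of 102.3 at its start and 5 in its window, as many as which 24.8% of protein-coding genes had. RNAP2 peaks covered 30.3% of the span of En2. Med12 had 0 peaks in all 3 windows, as in 45.3% of all.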
